A study of Homo sapiens with 4 samples.

Results

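The genes described here handle azacytidine and other nucleosides inside the cell, from uptake to the supply of deoxynucleotides. They were chosen by symbol, not by a cut on a measured value, but with earlier results of these data known. They are SLC29A1, SLC29A2, UCK1, UCK2, DCK, CMPK1, NME1, RRM1, RRM2 and SAMHD1, which make 10 of the 77973 genes of the deposited gene table. Transcripts were read by long-read PacBio sequencing (Iso-Seq) in cortical neurons grown from the established human iPSC line KOLF2.1J, in 4 libraries with 1 library per group. Every group carried NGN2, a neuronal transcription factor, under a doxycycline-inducible promoter, a constantly expressed dCas9-BFP-KRAB construct for CRISPR interference (CRISPRi), and a lentiviral guide RNA, as a puromycin-selected pool of cells. The control library had neither treatment. The knockdown library had CRISPRi against TDP-43, an RNA-binding protein, where the protocol names a non-targeting guide as the alternative. The azacytidine library had 5-azacytidine at 5 µM for 72 hours after plating on day 8, and the fourth library had the knockdown and azacytidine together. Harvest was on day 12 or day 15, and the labels do not say which day applies to which library. No vehicle is named for the libraries without azacytidine.

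Azacytidine is a cytidine analogue and a prodrug. Equilibrative transporters of the SLC29 family carry nucleosides across the membrane, uridine-cytidine kinases add the first phosphate, and CMPK1 and nucleoside diphosphate kinases such as NME1 add the next ones. The triphosphate enters RNA. Ribonucleotide reductase, made of the large subunit RRM1 with the small subunit RRM2 or RRM2B, turns ribonucleoside diphosphates into deoxy forms, and the deoxy form of azacytidine enters DNA, where it traps DNA methyltransferases. RRM2 is made mainly in dividing cells, and RRM2B supplies the small subunit outside of S phase. DCK phosphorylates deoxycytidine and its analogues, and SAMHD1 breaks down deoxynucleoside triphosphates.

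RRM2 and RRM1 were lower with azacytidine in both genetic backgrounds. RRM2 fell to 4.65% of its control level, and to 3.45% of its level in the knockdown library. RRM1 fell to 38.8% and 47.8%, and its call was lost under several alternatives. SLC29A1 was higher with azacytidine in both backgrounds on gene counts, by less than the size needed for a call, and this did not hold under several alternatives. No member met the rule for the knockdown. UCK1 and DCK had the most different azacytidine ratios in the 2 backgrounds, and neither difference passed adjustment over all genes in the main result.

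With 1 library per group there is no replicate check. Each comparison below is a two-sided exact binomial test on the reads of 2 libraries, adjusted by Benjamini-Hochberg over the 13789 genes that averaged at least 5 reads, and it compares those libraries, not the conditions. A gene was called where 2 pairs that share no library agreed in direction, each with an adjusted p under 0.05 and a log2 ratio of 1 or more in size. All deposited gene counts were even, for a reason not given in the sources used here. They were halved and taken as reads, and every read number, interval and p below rests on that. Libraries held 466337 to 767621 reads assigned to genes. Levels are CPM, reads scaled to the effective library size, and intervals are exact 95% intervals that cover counting error only. TARDBP, the gene of TDP-43, had 104 control reads against 72 with the knockdown, and 73 azacytidine reads against 43 with both, which are log2 ratios of -0.78 (adjusted p = 0.0068) and -0.73 (adjusted p = 0.074). All 14 neuronal markers on a fixed list passed the read minimum, as did 7 of 8 cortical glutamatergic markers, without BCL11B, which had at most 2 reads. Of 6 glial markers OLIG2 and MBP passed it, and AQP4 was at 0 in every library. Of 8 pluripotency markers LIN28A, DPPA4 and DNMT3B passed it, with 99 to 200 reads of LIN28A, and NANOG and POU5F1 had at most 2 reads.

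All 10 members passed the minimum of 5 reads on average. With azacytidine, 2 of the 10 were called lower, against 6.19% of all tested genes, and 0 were called higher, against 2.56%. In the azacytidine against control pair, 1 member (SLC29A1) was higher and 2 (RRM1 and RRM2) were lower at an adjusted p under 0.05, where the shares over all genes were 8.78% and 12.7%. In the pair of both treatments against the knockdown, 2 members (SLC29A1 and UCK1) were higher and the same 2 were lower, where the shares were 14.5% and 19.5%. At an unadjusted p under 0.05 the number of members was 4 in the former pair and 7 in the latter, where the shares over all genes were 32.3% and 41.8%. On the counts as deposited 2030 of 16780 tested genes were called with azacytidine, against 1207 of 13789 on the halved counts. The members called were the same 2, and 4 more passed adjustment in 1 pair. The share of all genes that passed in a pair on the deposited counts is not given here. These 4 were SLC29A2 against the control (adjusted p = 0.0027) and CMPK1, DCK and SAMHD1 against the knockdown (0.0076, 0.0017 and 0.0063). The median log2 ratio of the 10 members was -0.08 and -0.46 in these pairs, beside 0.02 and -0.02 over all tested genes.

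**Figure D1:**
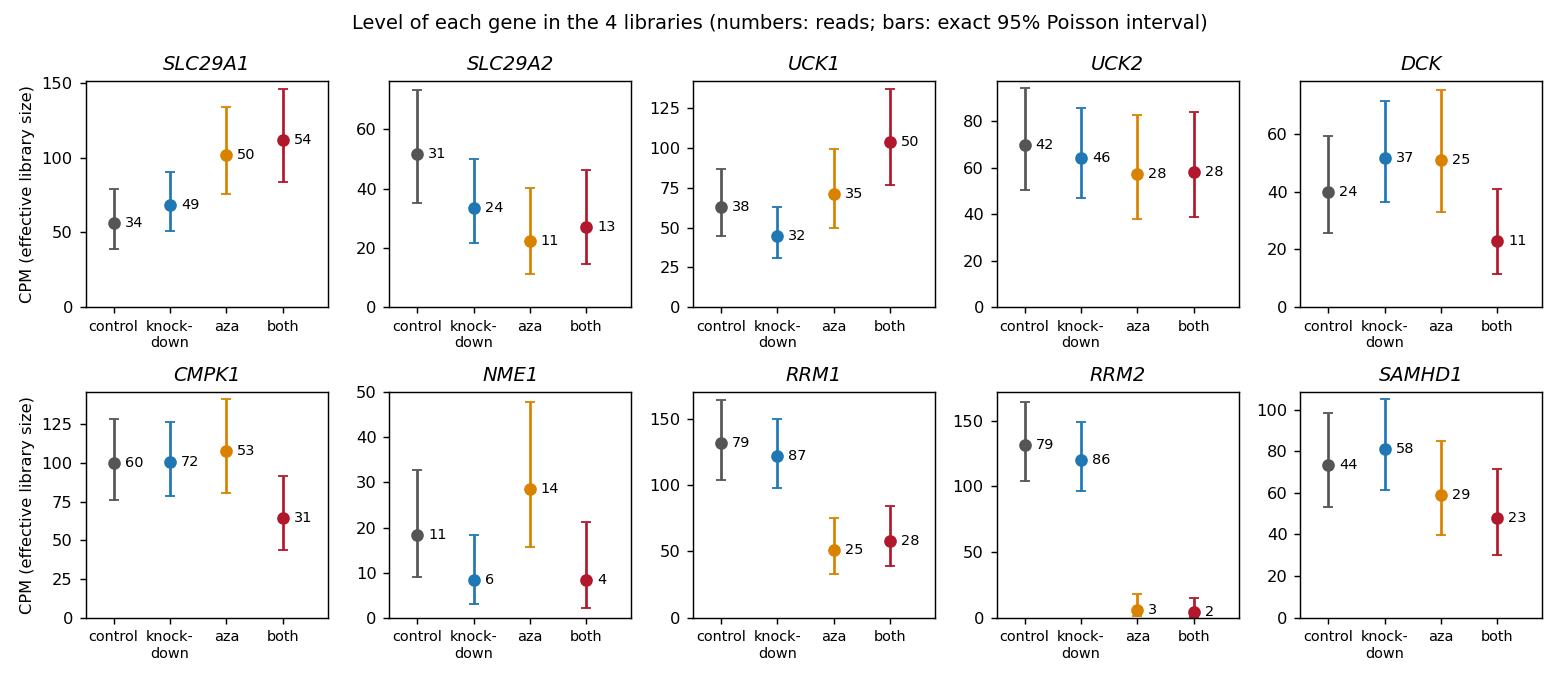
Level of each of the 10 genes (y axis, CPM on the effective library size, each panel with its own scale from 0) in the 4 libraries (x axis), with the number of reads beside each point and the exact 95% Poisson interval as a bar. RRM2 stands at 79 and 86 reads without azacytidine and at 3 and 2 reads with it, and the intervals of RRM1 without azacytidine lie above those with it.

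The transporter SLC29A1 (ENSG00000112759.19, chromosome 6, 44219553 to 44235989, plus strand, hg38) is the main equilibrative nucleoside transporter of the plasma membrane. It had 34 control reads, 49 knockdown reads, 50 azacytidine reads and 54 reads with both treatments. Both libraries with azacytidine were above both without it, at 102 and 112 CPM against 56.5 and 68.5 CPM. The intervals overlapped, except those of the control (39.2 to 79.0 CPM) and of both treatments (84.2 to 146 CPM). The log2 ratio was 0.84 (interval 0.19 to 1.52, adjusted p = 0.041) against the control and 0.71 (0.12 to 1.30, adjusted p = 0.046) against the knockdown. SLC29A1 thus passed the binomial test in each pair, with a log2 ratio under 1 in each. The adjusted p was 0.052 against the control with DESeq2 size factors, and 0.11 and 0.12 in the 2 pairs when genes with any read were tested. Against the knockdown the log2 ratio was 0.030 on uniquely assigned reads and 0.037 on full-length reads, with an adjusted p of 1.0 in each. Against the control it was 0.90 (adjusted p = 0.49) and 0.46 (adjusted p = 1.0). The additive edgeR model gave 0.77 with an adjusted p of 0.15, and DESeq2's gave 0.77 with 1.0.

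SLC29A2 (ENSG00000174669.12, chromosome 11, 66362521 to 66372214, minus strand), a related equilibrative transporter, had 31 control reads, 24 knockdown reads, 11 azacytidine reads and 13 reads with both treatments. The log2 ratio against the control was -1.16 (-2.34 to -0.17, adjusted p = 0.077), and against the knockdown -0.29 (-1.41 to 0.72, adjusted p = 0.76). Its libraries with azacytidine were the 2 lowest, where those of SLC29A1 were the 2 highest, and SLC29A2 passed in neither pair. In a description made after the values were seen, SLC29A1 made up 52.3% of the reads of the pair in the control library (Wilson 95% interval 40.4% to 64.0%) and 82.0% with azacytidine (70.5% to 89.6%). The share was 67.1% (55.7% to 76.8%) in the knockdown library and 80.6% (69.6% to 88.3%) with both. These shares are of reads and are not scaled by transcript length. The concentrative transporters of the SLC28 family, which couple nucleoside uptake to ions, were under the read minimum: SLC28A1 had 4 reads in the control library and 0 elsewhere, SLC28A2 had 1 read in all, and SLC28A3 had at most 3 reads in a library.

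UCK1 and UCK2 are the uridine-cytidine kinases, which add the first phosphate to azacytidine. UCK1 (ENSG00000130717.13, chromosome 9, 131523801 to 131531264, minus strand) had 38 control reads, 32 knockdown reads, 35 azacytidine reads and 50 reads with both treatments. Its highest level was with both treatments, 104 CPM, and its lowest was with the knockdown alone, 44.7 CPM. The log2 ratio was 1.21 (0.54 to 1.90, adjusted p = 0.0011) in the knockdown background and 0.18 (-0.53 to 0.88, adjusted p = 0.82) without the knockdown. UCK1 therefore passed in 1 pair and was not called. An exact conditional test of the difference of the 2 ratios gave a difference of 1.03 with an unadjusted p of 0.035 and an adjusted p of 0.23. UCK1's adjusted p in the knockdown background was 0.16 on reads assigned to a single transcript and 0.76 on full-length reads.

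UCK2 (ENSG00000143179.16, chromosome 1, 165827614 to 165911618, plus strand) had 42 control reads, 46 knockdown reads, 28 azacytidine reads and 28 reads with both treatments. These are levels of 69.8, 64.3, 57.0 and 58.1 CPM, and every pair of libraries had overlapping intervals. Its azacytidine log2 ratios were -0.28 (-1.04 to 0.43) and -0.14 (-0.88 to 0.56), so a log2 change beyond 1 in size lay outside the latter interval. UCK2 made up 52.5% of the reads of both kinases in the control library (41.7% to 63.1%) and 59.0% in the knockdown library (47.9% to 69.2%). With azacytidine it made up 44.4% (32.8% to 56.7%) and with both treatments 35.9% (26.1% to 47.0%). The intervals of the knockdown and of both treatments did not overlap, and all others did.

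DCK (ENSG00000156136.10, chromosome 4, 70992538 to 71030914, plus strand), the deoxycytidine kinase, acts on the deoxy analogue decitabine and not on the riboside. It had 24 control reads, 37 knockdown reads, 25 azacytidine reads and 11 reads with both treatments. The library with both treatments was the lowest, at 22.8 CPM against 39.9 to 51.7 CPM in the others. The azacytidine log2 ratio was 0.35 (-0.52 to 1.22, adjusted p = 0.62) without the knockdown and -1.14 (-2.30 to -0.18, adjusted p = 0.051) with it. The latter adjusted p was 0.043 when only genes averaging 20 reads or more were tested. The difference between these ratios was -1.49, with an unadjusted p of 0.021 and an adjusted p of 0.17. No member passed that test after adjustment on the halved counts, and 2 members, UCK1 and DCK, had an unadjusted p under 0.05. Over all tested genes, 6.43% passed it on those counts, and 17.7% had an unadjusted p under 0.05. On the counts as deposited 2 of the 10 members passed it, and the share over all genes on those counts is not given here.

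Neither of the later kinases passed in a pair. CMPK1 (ENSG00000162368.15, chromosome 1, 47333790 to 47394866, plus strand), which phosphorylates cytidine and uridine monophosphates, had 60 control reads, 72 knockdown reads, 53 azacytidine reads and 31 reads with both treatments. The first 3 libraries lay at 99.8, 100.7 and 108 CPM and the fourth at 64.3 CPM. Its azacytidine log2 ratio was 0.12 (-0.45 to 0.67, adjusted p = 0.87) without the knockdown and -0.63 (-1.30 to -0.02, adjusted p = 0.090) with it. NME1 (ENSG00000239672.8, chromosome 17, 51153559 to 51162428, plus strand), a nucleoside diphosphate kinase, had 11 control reads, 6 knockdown reads, 14 azacytidine reads and 4 reads with both treatments. Among the azacytidine ratios its intervals were the widest after those of RRM2, and the log2 ratios were 0.63 (-0.60 to 1.92) and 0.04 (-2.28 to 2.06). NME1 shares sequence with its neighbour NME2, which had 4 to 8 reads per library, and overlaps the read-through gene NME1-NME2, which had 1 to 3, so its reads are uncertain.

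RRM2 (ENSG00000171848.16, chromosome 2, 10120698 to 10211725, plus strand) encodes the small subunit of ribonucleotide reductase, which holds the tyrosyl radical. It had 79 control reads, 86 knockdown reads, 3 azacytidine reads and 2 reads with both treatments. The libraries with azacytidine were far below those without it, at 6.11 and 4.15 CPM against 131 and 120.2 CPM, with no overlap of the intervals. The log2 ratio was -4.21 (-6.73 to -2.83, adjusted p = 6.8e-15) against the control and -4.54 (-7.93 to -2.96, adjusted p = 4.5e-15) against the knockdown. Of all tested genes, 1.68% had a lower log2 ratio in the former pair and 1.88% in the latter. RRM2 was also called lower by additive models over the 4 libraries, at a log2 ratio of -4.56 in edgeR's quasi-likelihood test (adjusted p = 0.0013) and -4.63 in DESeq2 (adjusted p = 0.00084). On reads assigned to a single transcript the knockdown background gave -3.65 with an adjusted p of 0.13, and the call was lost. The processed pseudogenes RRM2P2 and RRM2P3 had at most 2 reads per library.

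RRM1 (ENSG00000167325.15, chromosome 11, 4094707 to 4138932, plus strand), the large catalytic subunit, had 79 control reads, 87 knockdown reads, 25 azacytidine reads and 28 reads with both treatments. Levels were 131 and 122 CPM without azacytidine and 50.9 and 58.1 CPM with it, and these 2 sets of intervals did not overlap. The log2 ratio was -1.35 (-2.08 to -0.70, adjusted p = 0.00019) against the control and -1.05 (-1.74 to -0.44, adjusted p = 0.0022) against the knockdown. Since the latter is close to the threshold of 1, the call was lost when libraries were scaled by total reads or when the pseudocount was 2. It was kept by edgeR's additive model (log2 ratio -1.21, adjusted p = 0.039) and lost in DESeq2's (-1.22, adjusted p = 0.67). It was also lost on uniquely assigned reads (adjusted p = 0.13 and 0.29 in the 2 pairs) and on full-length reads (0.24 and 0.20). In both pairs the interval of RRM2 lay wholly below that of RRM1, and this difference was not tested.

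**Figure D2:**
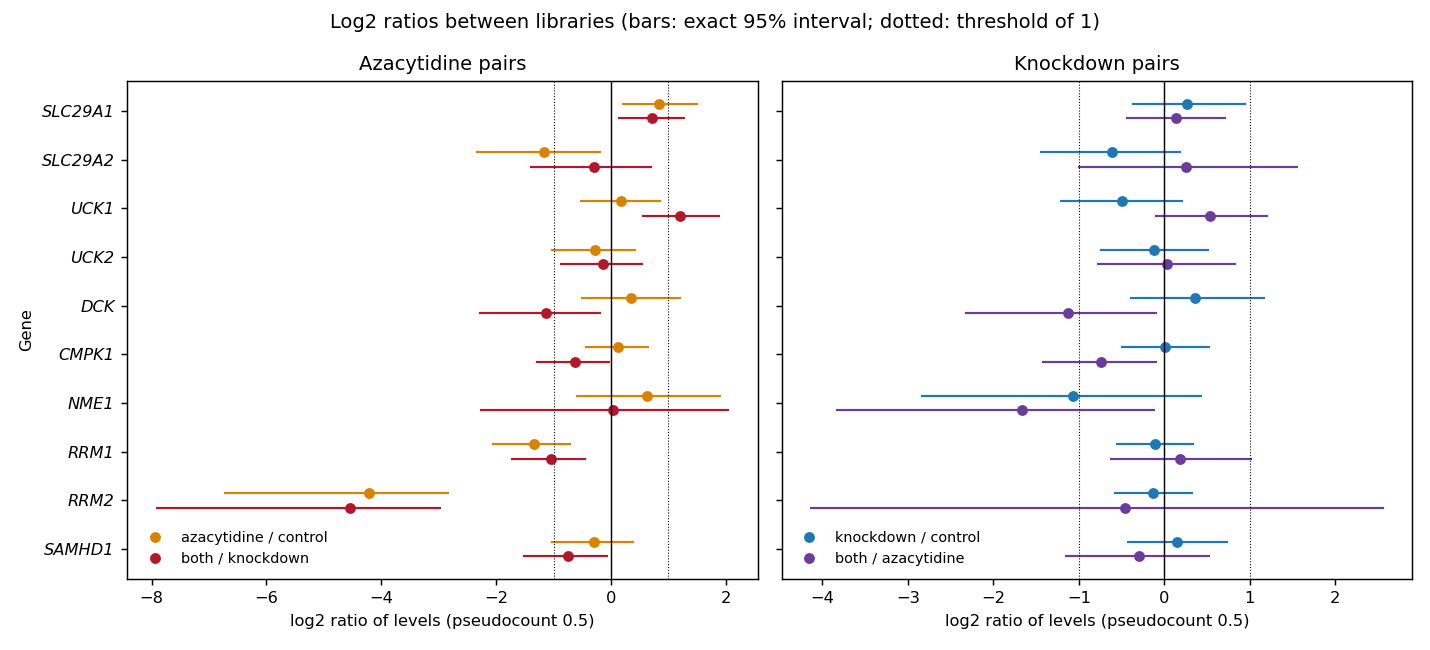
Log2 ratios of the 10 genes (y axis) for the 2 azacytidine pairs on the left and the 2 knockdown pairs on the right (x axis, log2 of the ratio of levels with a pseudocount of 0.5), with exact 95% intervals and dotted lines at the threshold of 1. RRM2 at -4.21 and -4.54 and RRM1 at -1.35 and -1.05 are beyond the threshold in both azacytidine pairs, and in the knockdown pairs NME1 alone is, at -1.07 and -1.66, with wide intervals and without passing adjustment.

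RRM2B, the alternative small subunit, is on the fixed list of related genes and was not a member. It had 36 control reads, 90 knockdown reads, 40 azacytidine reads and 5 reads with both treatments. Its azacytidine log2 ratio was 0.44 (-0.24 to 1.14, adjusted p = 0.41) without the knockdown and -3.47 (-5.26 to -2.32, adjusted p = 3.9e-13) with it. RRM2B reads were 31.3% of the reads of both small subunits in the control library (23.5% to 40.3%), 51.1% in the knockdown library (43.8% to 58.4%) and 93.0% with azacytidine (81.4% to 97.6%). With both treatments only 7 small-subunit reads were left, 5 of them from RRM2B. The sum of RRM2 and RRM2B was 115 control reads, 176 knockdown reads, 43 azacytidine reads and 7 reads with both treatments.

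The fall of RRM2 and RRM1 went together with that of markers of dividing cells. Of 20 cycling-cell markers on a fixed list, 18 passed the read minimum. With azacytidine 13 were called lower, where 6.19% of all tested genes were. MKI67, a proliferation antigen, had 142 control reads, 154 knockdown reads, 2 azacytidine reads and 1 read with both treatments. The summed level of the 20 markers was 2019 CPM in the control library, 1847 CPM in the knockdown library, 306 CPM with azacytidine and 266 CPM with both. Of these markers 0 were at 0 reads in the first 3 libraries, and 4 were with both treatments: CCNB2, CDK1, AURKB and UBE2C. The summed level of 10 neural progenitor markers was 1152, 1079, 189 and 151 CPM in the same order. That of 8 cortical glutamatergic markers was 642, 721, 450 and 500 CPM, also lower with azacytidine. The 8 pluripotency markers summed to 439, 468, 297 and 411 CPM, and the 14 neuronal markers to 3585, 3810, 3978 and 3086 CPM. In bulk RNA, fewer cells of a type and less RNA per cell cannot be told apart, and the part of dividing cells in the values of RRM2 and RRM1 was not tested.

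Both subunits were placed among the cycling-cell markers, after the values were seen and with no test. The log2 ratio of the 18 tested markers ran from -5.54 to -1.24 in the azacytidine against control pair (median -2.63) and from -6.17 to -0.61 in the pair with the knockdown (median -2.97). RRM2 had 2 of the 18 markers below it in the former pair and 3 in the latter, so it was near the lower end. RRM1 had 17 and 16 of them below it, and was near the upper end. RRM2 reads were 6.11% of the sum of RRM2 and marker reads in the control library (4.93% to 7.55%), 6.11% in the knockdown library, 1.96% with azacytidine (0.67% to 5.61%) and 1.54% with both (0.42% to 5.44%). For RRM1 the share was 6.11% in the control library, 6.18% in the knockdown library, 14.3% with azacytidine (9.87% to 20.2%) and 17.9% with both (12.7% to 24.7%). The intervals of RRM1's share with azacytidine thus lay above those without it.

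**Figure D3:**
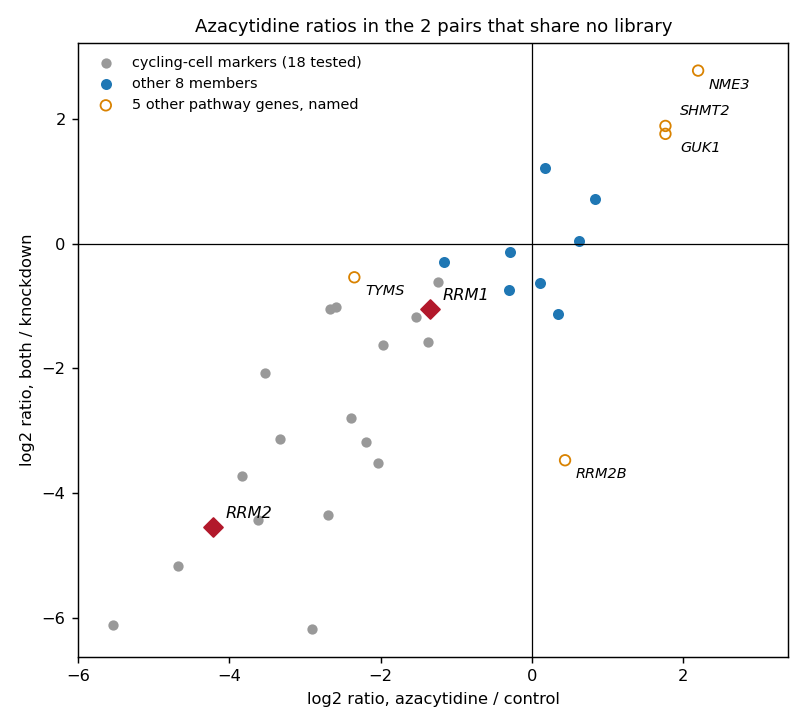
Azacytidine log2 ratio without the knockdown (x axis) and in the knockdown background (y axis) for RRM1 and RRM2 (red diamonds), the other 8 members (blue), 18 cycling-cell markers (grey) and 5 named pathway genes (open circles). RRM2 is among the markers with the lowest ratios, RRM1 is at the upper end of the markers, and RRM2B is apart at 0.44 and -3.47.

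SAMHD1 (ENSG00000101347.11, chromosome 20, 36890229 to 36951893, minus strand), the deoxynucleoside triphosphate hydrolase, had 44 control reads, 58 knockdown reads, 29 azacytidine reads and 23 reads with both treatments. Levels were 73.2, 81.1, 59.1 and 47.7 CPM, lower in both libraries with azacytidine, with overlapping intervals. The log2 ratio was -0.30 (-1.04 to 0.40, adjusted p = 0.64) against the control and -0.75 (-1.53 to -0.05, adjusted p = 0.082) against the knockdown. On uniquely assigned reads the former was -1.61 and passed (adjusted p = 0.039), while the latter was -0.51 (adjusted p = 0.51).

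For the knockdown, 0 of the 10 members were called in either direction, where 0.392% of all tested genes were called higher and 0.363% lower. By the binomial test 0 members passed adjustment in either pair. At an unadjusted p under 0.05 there were 0 members without azacytidine, and 3 with it: DCK with a log2 ratio of -1.12 (-2.33 to -0.08), CMPK1 with -0.74 (-1.44 to -0.08) and NME1 with -1.66 (-3.84 to -0.11). All 3 were lower with both treatments than with azacytidine alone. Over all genes, 24.5% and 21.8% had an unadjusted p under 0.05 in these pairs. On the counts as deposited the same 3 passed adjustment in the latter pair (DCK 0.0084, CMPK1 0.0075 and NME1 0.0079), and no member was called. On those counts 376 of 16780 tested genes were called with the knockdown, against 104 of 13789 on the halved counts. The share of all genes that passed in a pair on the deposited counts is not given here. On the halved counts, 8.48% of all genes were higher and 4.24% lower after adjustment in knockdown against control. In both treatments against azacytidine, 5.99% were higher and 4.22% lower. The edgeR and DESeq2 additive models also called 0 members. RRM2 and RRM1 had log2 ratios of -0.13 (-0.59 to 0.33) and -0.11 (-0.57 to 0.35) without azacytidine, so a change of 2-fold lies outside these intervals. Scaling by total reads gave 36 genes called higher and 73 lower over all genes, against 54 and 50 in the main result, and still no member. For azacytidine it gave 438 higher and 760 lower, against 353 and 854. The pairs for azacytidine and for the knockdown share libraries, so a gene low in the library with both treatments lowers a ratio in each.

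The promoters of the members were described because azacytidine acts on DNA methylation and because RRM1 and RRM2 moved together. RefSeq windows (GRCh38.p14) from 250 bases before to 50 after a start site were matched for 9 members, with 11 windows in all. The windows held 21 to 41 CpG, all above the median of 14 over 35116 promoter windows. RRM2 had 31 and 41, SLC29A1 had 27 and 34, and RRM1 had the fewest, 21. Methylation was not analysed here. The motifs, searched on both strands, were CCAAT, the letters bound by NF-Y, the E2F words TTTCCCGC, TTTGGCGC, TTTCGCGC and TTTGCCGC, TTTGAA, the core of the cell cycle genes homology region, and the GC box GGGCGG. They were chosen after the values were seen. CCAAT was in 6 of the 11 windows, against 34.6% of all windows. An E2F word was in 1, that of DCK, against 3.31%, and TTTGAA was in 2, against 15.2%. The GC box was in 7, against 45.0%. These shares are descriptions of letters, not of binding.

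The RRM2 window at start site 10122739 held 3 CCAAT, at positions -123, -93 and -66 from the start, and 3 or more were found in 3.26% of all windows. The other RRM2 window, at start site 10122568, held 1 CCAAT, at -249, and its stretch is not shown. The RRM1 window held 1, at -28, and a TTTGAA on the other strand at -199. The other window with TTTGAA was of SLC29A1, which was not called, at -33. CCAAT was also in the windows of 3 members that were not called: SAMHD1 (at -49 and -38), UCK2 (at -38, other strand) and NME1 (at -203). The stretches of RRM1 and of the RRM2 window at 10122739 are shown because RRM1 and RRM2 were the only members called. CCAAT is in capitals, with 12 bases on either side.
RRM2, chr2:10122604-10122632, plus strand: ggcaaggcgcagCCAATgggaagggtcgg
RRM2, chr2:10122634-10122662, plus strand: ggcatggcacagCCAATgggaagggccgg
RRM2, chr2:10122661-10122689, plus strand: ggggcaccaaagCCAATgggaagggccgg
RRM1, chr11:4094645-4094673, plus strand: gcatgtccatatCCAATggggcccatggg
The RRM2 stretches share a run of 15 bases, agCCAATgggaaggg, and the RRM1 stretch does not hold it. Over all promoter windows this run was found in 2, of RRM2 and TOMM40. The 150 bases upstream of the RRM1 start site, 4094685, hold 10 CpG and end before the first base of the gene in the deposited annotation, 4094707.
RRM1, chr11:4094535-4094684, plus strand: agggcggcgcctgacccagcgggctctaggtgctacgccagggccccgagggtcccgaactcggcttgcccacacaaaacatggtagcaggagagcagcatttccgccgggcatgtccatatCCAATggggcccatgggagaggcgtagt
Counted from these RefSeq start sites, the CCAAT of the RRM1 stretch is nearer than those of RRM2. Transcripts read here begin elsewhere, so these positions are not distances from their starts. The main RRM1 transcript, ENST00000300738.10, begins at 4094799. The RRM2 stretches lie within the first exon, 10122328 to 10122897, of ENST00000360566.6, the RRM2 transcript with the most reads.

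Transcripts were then examined within each member. Of the reads assigned to a gene, between 58.5% and 68.1% per library were also given to a transcript. SAMHD1, UCK2, CMPK1 and DCK were above this range in every library. SLC29A2 was well below it, at 16.1% in the control library (7.09% to 32.6%), 33.3% in the knockdown library, 27.3% with azacytidine and 30.8% with both, so most of its gene reads were given to no transcript. UCK1 had 76.3% in the control library (60.8% to 87.0%) and 52.0% with both treatments (38.5% to 65.2%), where its gene level was highest. UCK1 transcript reads numbered 29 (control), 21 (knockdown), 25 (azacytidine) and 26 (both), a narrower range than its gene reads.

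**Figure D4:**
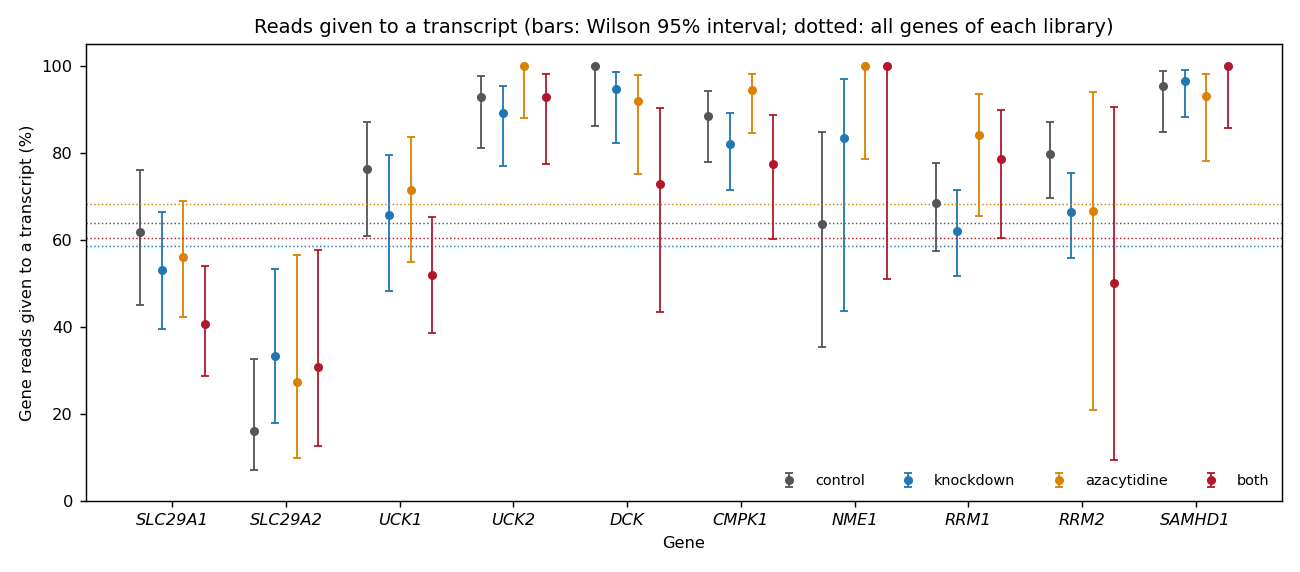
Share of the reads of each gene that were given to a transcript (y axis, percent, with Wilson 95% intervals) in the 4 libraries (colours), with the share over all genes of each library as dotted lines. SLC29A2 lies between 16.1% and 33.3%, below every dotted line, and SAMHD1 lies at 93.1% or above in every library.

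A transcript's share of its gene's transcript reads was compared by Fisher's exact test, adjusted over 15489 transcripts, and 23 member transcripts were tested. None was called with azacytidine, where 1.13% of all were called, and none with the knockdown, where 0.71% were. With azacytidine 0 member transcripts had an unadjusted p under 0.05, where 15.2% of all did without the knockdown and 17.3% with it, and 6.06% and 7.57% passed adjustment. In the knockdown pairs 2 passed adjustment without azacytidine, both of CMPK1, and 0 with it, where 7.33% and 4.53% of all passed. At an unadjusted p under 0.05 there were 2 and 3, where the shares of all were 15.8% and 12.6%.

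The CMPK1 transcript ENST00000699075.1 had 0 control reads, 16.2 knockdown reads, 0 azacytidine reads and 4 with both treatments. Its share rose by 27.1 percentage points without azacytidine (adjusted p = 0.0010) and its 16.7 points with azacytidine did not pass (adjusted p = 0.14). The main transcript, ENST00000371873.10, with 47.8, 37.5, 43 and 20 reads, had a share lower by 26.2 points (-26.2, adjusted p = 0.024) in the former pair. These 2 transcripts have the same exons, except that the first exon begins at 47333790 in the main one and at 47333914 in the other. No full-length read and no uniquely assigned read was given to ENST00000699075.1 in any library, so reads of the 2 transcripts were divided by estimation.

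RRM2 reads were divided among transcripts that differ mainly in the first exon. The one with the most reads over the 4 libraries, ENST00000360566.6, begins at 10122328 and had 22.5 (control), 14.9 (knockdown), 0.66 (azacytidine) and 0.25 (both) estimated reads. Transcripts ENST00000652660.1 and ENST00000304567.10, which begin at 10122730 and 10122739, had 14.9 each, with the knockdown and without it, when azacytidine was absent. ENST00000615152.5, which begins at 10123171, had 10.8, 9.43, 0.01 and 0.25. With azacytidine each of these had under 1 estimated read. The starts at 10122730 and 10122739 had no uniquely assigned read in any library and no full-length read in the control, where full-length reads were 14 at 10122328 and 7 at 10123171. Reads shared by the first 3 transcripts were therefore divided by estimation, and a fall at each single start is not shown. Full-length reads of RRM2 numbered 21, 20, 1 and 0 in that order. The transcript ENST00000381786.7, which lies wholly downstream from 10141382, had 3 reads in the knockdown library and 0 elsewhere.

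RRM1 was read mainly as ENST00000300738.10, with 19 exons and 42.6 (control), 50 (knockdown), 18.9 (azacytidine) and 18.0 (both) reads. An unannotated RRM1 transcript with 18 exons and no new intron had 8.95, 2.47, 0 and 0 reads, and the test of its share gave an adjusted p of 0.34 and 0.32 for azacytidine and for the knockdown in the pairs with the control library. The transcript with the most estimated reads over the 4 libraries was ENST00000372215.5 for UCK1, ENST00000367879.9 for UCK2, ENST00000371755.9 for SLC29A1, ENST00000357440.7 for SLC29A2, ENST00000393196.8 for NME1, ENST00000286648.10 for DCK and ENST00000646673.2 for SAMHD1. Those of UCK1, DCK and SAMHD1 led in every library. Another transcript led for UCK2 with azacytidine (13.0 against 12.7 reads), SLC29A1 in the control (5.65 against 5.25), SLC29A2 with both treatments (2 against 1) and NME1 with the knockdown (2.64 against 1.59). SAMHD1's made up 81.3% to 88.3% of its transcript reads. Of 4 other unannotated member transcripts, 2 were of SLC29A1 and 2 of UCK1, each with at most 6.54 reads in a library, and 1 of UCK1 had a new intron, from 131529202 to 131529487.

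The other genes of nucleotide metabolism were given by fixed lists of 58, of which 51 passed the read minimum. With azacytidine 3 were called higher and 1 lower, where 2.56% and 6.19% of all tested genes were. GUK1, the guanylate kinase, had 23 control reads, 30 knockdown reads, 65 azacytidine reads and 69 reads with both treatments, with log2 ratios of 1.77 and 1.76. SHMT2, the mitochondrial serine hydroxymethyltransferase, had 23, 21, 65 and 53 reads in that order, and log2 ratios of 1.77 and 1.88. NME3, another nucleoside diphosphate kinase, had 10, 2, 39 and 11, with 2.20 and 2.77. None of these 3 was called in the DESeq2 model, and all 3 were in the edgeR model.

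By list, 2 of 14 tested salvage kinases, GUK1 and NME3, were called higher and 0 lower, beside 2.56% and 6.19% of all tested genes. SHMT2, of the reductase and thymidylate list, was called higher, and of 12 deaminases and hydrolases, 5 pyrimidine synthesis genes, 12 purine synthesis genes and 2 transporters 0 were called with azacytidine. Median log2 ratios over the 51 genes were 0.16 and -0.01. Cytidine deaminase (CDA), which inactivates azacytidine, had 1 read, in the knockdown library, and 0 elsewhere. With 3 reads as the limit that a count of 0 allows, its level was up to 4.99 CPM in the control, 6.11 CPM in the azacytidine and 6.23 CPM in the combined library. Thymidine kinase 1 (TK1), made in dividing cells, had 11, 12, 2 and 0 reads, and thymidylate synthase (TYMS) had 40, 20, 6 and 9, and neither was called. With the knockdown ADSL, the adenylosuccinate lyase of purine synthesis, was the 1 gene called, higher (log2 ratios 1.62 and 2.41, adjusted p = 6.4e-23 and 5.9e-74). It had 93 control reads, 341 knockdown reads, 108 azacytidine reads and 567 with both treatments. Over all tested genes, 0.392% were called higher with the knockdown and 0.363% lower.

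Genes with the most similar profile were listed for the 4 members that averaged at least 20 reads and had a range of at least 1 on the log2 scale. Likeness was the Euclidean distance between centred log2 CPM over the 4 libraries. Nearest to RRM2 were COL2A1 (distance 0.21), PRR11 (0.32) and HS3ST3A1 (0.35), and nearest to RRM1 were SEC22A (0.057), NCAPG2 (0.10) and PAXBP1 (0.12). UCK1 was nearest to CXXC5 (0.071), NCAPH2 (0.080) and FAM98A (0.096). DCK was nearest to LSM8 (0.022), GNPDA2 (0.064) and MIR4435-2HG (0.10). These distances rest on 4 libraries and were given no test.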

How the data were processed

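The authors deposited estimated counts per gene, estimated counts, full-length counts and uniquely assigned counts per transcript, CPM per transcript, and an extended annotation whose genomic coordinates are in hg38, per the submitters' processing notes. Per the file headers, the aligner was minimap2 and the annotation names Bambu. Versions and strand use are not given in the sources used here. Deposited CPM values were used only to check their denominator. All deposited gene counts were even to within 0.001, for a reason not given in the sources used here, and they were divided by 2 and rounded to whole reads.

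Tests used TMM factors from edgeR 4.0.16, over genes averaging at least 5 reads, with a pseudocount of 0.5 for log2 ratios. Symbols were found for 60555 of 77186 annotated gene identifiers. Transcript tests needed a gene mean of 20 transcript reads, 10 reads of the transcript and a change of 10 percentage points, with the rounded sum of a gene's transcript reads as denominator. Additive models in edgeR and DESeq2 1.42.0 were alternatives. The limit for 0 reads was 3 reads. Scripts were tested on simulated reads with counting error only. The first acceptance rule, over all changed genes, failed because of genes with few reads. It was then limited to genes with more reads. By the rule, the named genes are all members, every gene called on the pathway lists except 1 that is not reported here, the main transcripts, and the 3 nearest profiles. Other listed genes, neighbours and pseudogenes were named outside it, after their values were seen. Members and lists were chosen with earlier results of these data known. The separate origin of cultures is not described.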

Additional observations from a re-analysis of the deposited data

Results flagged for a closer look

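For 2 of 51 tested pathway genes outside the member list, the azacytidine ratio differed between the knockdown background and the background without it. The exact conditional test was adjusted over all genes tested, and 6.43% of those passed it. For RRM2B, the alternative small subunit of ribonucleotide reductase, the log2 ratio was lower by 3.91 in the knockdown background (difference -3.91, adjusted p = 1.2e-08), from 36 to 40 reads without the knockdown and from 90 to 5 with it. For ADSL, an enzyme of purine synthesis, the log2 ratio was higher by 0.79 in the knockdown background (adjusted p = 0.015), from 93 to 108 reads without the knockdown and from 341 to 567 with it. Each rests on 1 library per group.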

How the results depend on the processing

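No paired analysis was possible because each group has 1 library and all are labelled replicate 1, so no library could be left out either. Members called with azacytidine numbered 2, and 1 (RRM2) with scaling by total reads, a pseudocount of 2, full-length reads or the additive DESeq2 model. On uniquely assigned reads there were 0. Counts as deposited, without halving, gave 2030 of 16780 genes called with azacytidine against 1207 of 13789, and 376 with the knockdown against 104. They also gave 8 and 5 of 53 other pathway genes against 4 and 1 of 51. Of 10 members 2 had a difference between backgrounds, against 0. Of 29 member transcripts 1 was called with the knockdown, against 0 of 23. For these last 2 counts the shares over all genes and transcripts on the deposited counts are not given here. Uniquely assigned reads gave 278 and 13 genes with azacytidine and the knockdown, full-length reads 44 and 5, and additive DESeq2 184 and 6. Additive edgeR gave 12 with the knockdown. Other pathway genes with azacytidine were 1 on unique reads, 0 on full-length reads and 0 in DESeq2. Fewer reads and fewer genes enter on unique and full-length reads; for the other changes the cause was not tested. Of 304 alternative values of the 40 member ratios, 261 kept their direction and stayed on the same side of the cut on adjusted p. Another 14 no longer passed adjustment, 9 newly passed it and 20 changed sign. None of those 20 had passed adjustment in the main result. The log2 size of 1 was not part of this tally. RRM1 against the knockdown was thus counted as kept at -0.93 with total reads and at -0.999 with a pseudocount of 2. Depth was low for RRM2 with azacytidine, at 2 and 3 reads, for NME1, at 4 to 14 reads per library, and for SLC29A2, at 11 to 31.

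Sign changes on uniquely assigned reads were UCK2 at 1.12 and 0.33 for azacytidine without and with the knockdown and at 0.62 and -0.17 for the knockdown without and with azacytidine, SLC29A1 at -0.051, RRM2 at 0.20 and SAMHD1 at 1.33 for the knockdown with azacytidine, and CMPK1 at -0.19 and DCK at -0.061 for the knockdown without it. On full-length reads they were UCK2 at 0.042, 0.24 and 0.45 in the first 3 of these pairs, DCK at -0.0058 for azacytidine without the knockdown, NME1 at 0.049 and SAMHD1 at -0.35 for the knockdown without azacytidine, and RRM1 at -0.26 and SAMHD1 at 0.28 with it. Scaling by total reads gave UCK2 at -0.034 with azacytidine and CMPK1 at -0.11 without it for the knockdown, and DESeq2 size factors gave CMPK1 at -6.7e-05.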
